A study of Mus musculus with 8 samples.

Results

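Lysophosphatidic acid (LPA) and sphingosine 1-phosphate (S1P) signalling was followed through 10 genes in lung myofibroblasts. The genes were taken from the deposited count table by their mouse Ensembl identifiers: the LPA-producing enzyme gene Enpp2, the LPA receptor genes Lpar1, Lpar4 and Lpar6, the S1P receptor genes S1pr1, S1pr2 and S1pr3, the S1P-producing kinase gene Sphk1, and the lipid phosphatase genes Plpp1 and Plpp3. All 10 were found among the 43432 identifiers of the table, and all 10 passed the filter on low counts. They were selected on knowledge of the pathways and on results of the same comparison, measured in the same 8 libraries, in which Enpp2 had already been seen to differ (the rule states no threshold). Their differences between the groups are therefore given as a description, with standard errors (SE) and intervals but no p-values. Where the text counts which of them passed a threshold over all genes, that too is a description and supports nothing further.

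The study asked how myofibroblasts that constitutively express Fra-2 differ from wild-type myofibroblasts during the formation of alveolar walls. Fosl2 encodes Fra-2, one of the Fos proteins that make up the transcription factor AP-1. Of the 8 libraries, 4 carry the label Fra-2 transgenic and are named Fra-2 1 to Fra-2 4, and 4 carry the label wild type and are named control 1 to control 4. All came from lung myofibroblasts of C57BL/6 mice at postnatal day 7. The labels give neither the promoter that drives the transgene nor whether libraries came from separate animals, and the source names of the transgenic samples carry the word control beside Fra-2. P-values therefore measure the spread between these libraries, which may be technical.

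LPA and S1P are lysophospholipids that act outside the cell on G protein-coupled receptors. Autotaxin, the secreted product of Enpp2, cuts lysophosphatidylcholine to LPA, sphingosine kinases phosphorylate sphingosine to S1P, and membrane lipid phosphatases of the PLPP family remove the phosphate of both. Through the Gi, Gq and G12/13 proteins the receptors act on calcium, migration and contraction, and in mice the LPA receptor encoded by Lpar1 is known for its part in lung fibrosis after injury.

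The libraries held 29926239 to 38954848 counts in the labelled transgenic group and 31986025 to 41335957 in the control group. Fosl2 itself measured 166, 134, 126 and 104 CPM (counts per 1000000 counts, after TMM scaling of library sizes) in Fra-2 1 to Fra-2 4, against 105, 117, 141 and 119 CPM in control 1 to control 4. The groups overlapped (log2 fold change 0.14, SE 0.136, edgeR adjusted p = 0.888, and p = 0.457 in a two-sided exact permutation test whose smallest possible p is 0.0286). Whether transcripts of the transgene would be counted on Fosl2 is not given in the sources used here, so these values may not measure the transgene. Because Fosl2 does not separate the groups, the transgenic group is called by its label throughout. Mitochondrially encoded genes took 3.77% to 6.26% of counts in the labelled transgenic libraries and 4.79% to 10.5% in the controls, with the highest share in control 2. Markers of myofibroblasts were high, with Pdgfra, Acta2, Tagln, Myh11, Eln, Fgf18, Tgfbi and Stc1 summing to 16330 to 18162 CPM in the labelled transgenic and 15942 to 17614 CPM in the control libraries. Of these 8 markers Stc1 rose (693 ± 101 CPM in labelled transgenic and 470 ± 43.3 CPM in control libraries, edgeR adjusted p = 0.0302). DESeq2 also called Fgf18 higher, and none fell. At an unadjusted p under 0.05 in edgeR, 3 were higher (Eln, Fgf18 and Stc1) and 0 lower.

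Promoter sequences were available from RefSeq (GRCm38.p6) for 7 of the 10 genes, in 13 windows that each run from 250 bases before to 50 bases after an annotated start site. The AP-1 site TGANTCA, which reads the same on both strands, was searched in them because Fra-2 binds such sites as part of AP-1. The window of S1pr3 is shown because this gene differed most between the groups, and the window of Sphk1 because Sphk1 was the 1 gene of the 7 with a match. The S1pr3 window lies at chr13:51408368-51408667 on the plus strand and that of Sphk1 at chr11:116531587-116531886 on the plus strand, and capitals mark the match.
S1pr3: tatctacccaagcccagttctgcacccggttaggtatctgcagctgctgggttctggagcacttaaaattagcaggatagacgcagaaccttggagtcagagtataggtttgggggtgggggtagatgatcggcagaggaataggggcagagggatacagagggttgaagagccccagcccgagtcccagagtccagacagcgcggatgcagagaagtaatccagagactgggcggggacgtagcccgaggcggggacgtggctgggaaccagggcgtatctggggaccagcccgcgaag
Sphk1: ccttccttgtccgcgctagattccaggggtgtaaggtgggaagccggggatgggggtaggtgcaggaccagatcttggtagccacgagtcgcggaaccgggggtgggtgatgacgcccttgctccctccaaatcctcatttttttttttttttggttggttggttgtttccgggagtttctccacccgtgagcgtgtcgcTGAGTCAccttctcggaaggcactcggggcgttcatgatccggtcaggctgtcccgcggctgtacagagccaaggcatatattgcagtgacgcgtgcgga
The match in Sphk1 starts at base -50 from 1 start site and, since the windows of this gene overlap, at base -124 from another. Sphk1 has 5 of the 13 windows. The windows of Lpar1, Lpar4, Lpar6, S1pr2, S1pr3 and Plpp3 held no TGANTCA. Over all promoters in the table, 8.97% of 27025 genes had at least 1 window with these letters, and of the genes tested here 6.28% did. The related cyclic AMP response element TGACGTCA, also the same on both strands, occurred in the window of S1pr2, from base -181. It was found in 2.03% of all genes and in 3.47% of the genes tested here. These matches describe letters in short windows and were not related to binding.

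The 10 genes lay at very different levels. On a scale per length (TPM, transcripts per 1000000, from counts divided by the summed exon length of each gene), Enpp2 led in the control libraries, with 419 ± 53.9 TPM (mean ± SD, n = 4), while it reached 291 ± 76.1 TPM in the labelled transgenic libraries. Plpp3 measured 318 ± 31.4 TPM in labelled transgenic and 291 ± 29.2 TPM in control libraries, and Lpar1 171 ± 18.7 TPM in labelled transgenic and 213 ± 15.1 TPM in control libraries. Plpp1 measured 97.9 ± 14.8 TPM in labelled transgenic and 89.9 ± 10.6 TPM in control libraries, and S1pr1 measured 60.7 ± 9.4 TPM in labelled transgenic and 56.4 ± 12.6 TPM in control libraries. At the low end stood Lpar4, Lpar6 and Sphk1, whose means lay between 2.74 and 9.04 TPM in labelled transgenic and between 2.64 and 8.01 TPM in control libraries.

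In GRCm38, Lpar4 (ENSMUSG00000049929) lies on chromosome X from 106920625 to 106933900 and Lpar6 (ENSMUSG00000033446) on chromosome 14 from 73237895 to 73243294. S1pr1 (ENSMUSG00000045092) lies on chromosome 3 from 115710433 to 115715072 and S1pr2 (ENSMUSG00000043895) on chromosome 9 from 20962361 to 20976781. Sphk1 (ENSMUSG00000061878) lies on chromosome 11 from 116530925 to 116536674, Plpp1 (ENSMUSG00000021759) on chromosome 13 from 112800792 to 112867894 and Plpp3 (ENSMUSG00000028517) on chromosome 4 from 105157347 to 105232764. All 10 are annotated as protein-coding.

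The order of levels differed between the groups at a few places. In the labelled transgenic libraries Plpp3 stood above Enpp2 and S1pr3 above S1pr1, but in both pairs the ranges over libraries overlapped, as did those of Plpp1 and S1pr3. In the control libraries the order was Enpp2, Plpp3, Lpar1, Plpp1, S1pr1, S1pr3, S1pr2, Lpar4, Lpar6 and Sphk1, and only Lpar4 and Lpar6 overlapped. The order of the leading genes depends on the length used. Divided by its longest coding sequence, Enpp2 came to 206 TPM in the labelled transgenic and 317 TPM in the control libraries, while Plpp3 came to 360 TPM in the labelled transgenic and 355 TPM in the control libraries.

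**Figure D1:**
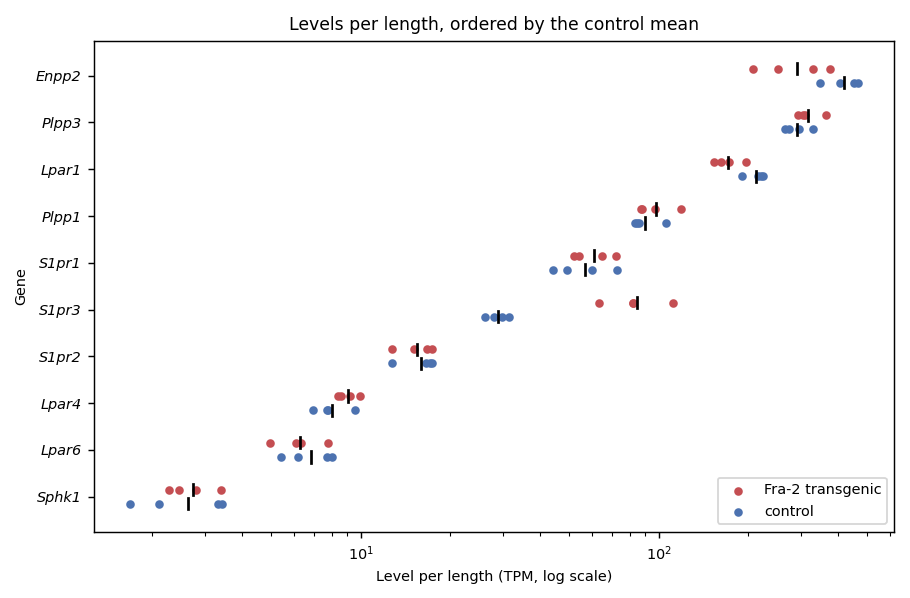
Levels per length of the 10 genes, in TPM on a logarithmic axis, with 1 point per library (red labelled Fra-2 transgenic, above; blue control, below; n = 4 each) and a black bar at each group mean. The genes are ordered by the control mean, and S1pr3 alone has no overlap of the groups on this scale.

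Enpp2, the gene of the LPA-producing enzyme autotaxin, was lower in the labelled transgenic libraries. It measured 419, 453, 350 and 284 CPM in Fra-2 1 to Fra-2 4, against 568, 528, 569 and 621 CPM in control 1 to control 4. Every labelled transgenic library lay below every control library, with Fra-2 4 the lowest of all. The means were 376 ± 74.9 CPM in labelled transgenic and 571 ± 37.9 CPM in control libraries (SD, n = 4 each), a log2 fold change of -0.60 (SE 0.131, 95% interval -0.88 to -0.32). Per length, the groups overlapped, since Fra-2 2 had 375 TPM and control 2, the library with the largest mitochondrial share, had 348 TPM. With mitochondrially encoded genes left out of the sum, a choice made after the data were seen, they did not overlap (256 to 437 TPM in labelled transgenic and 512 to 565 TPM in control libraries). Enpp2 (ENSMUSG00000022425) lies on chromosome 15 from 54838901 to 54952892 in GRCm38 and shares 345 exonic bases with the opposite-strand transcript Gm26684, which had only 3 to 26 reads per library.

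Over the whole table, 157 of 15422 tested genes passed an adjusted p of 0.05 in edgeR's quasi-likelihood test, which is 1.02% of them (0.72% higher and 0.298% lower in the labelled transgenic libraries). Of the 10 genes, 1 was past this threshold and higher, S1pr3, 1 was past it and lower, Enpp2, and 8 were not past it. Groups that do not overlap in CPM were found for 5.76% of all tested genes (3.35% higher and 2.42% lower) and for 3 of the 10, S1pr3 higher and Enpp2 and Lpar1 lower. Nothing is read from these counts, because the genes were chosen with this comparison known. The median log2 fold change of the 10 was 0.02, against -0.01 over all tested genes. The position of Enpp2 past the threshold was kept in only 1 of the 8 fits that each left out 1 library, that without Fra-2 2. Its log2 fold change in these 8 fits ran from -0.70 without Fra-2 2 to -0.49 without Fra-2 4. It was also lost under upper-quartile scaling, total-count scaling, without robust estimation and with a term for sex.

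**Figure D2:**
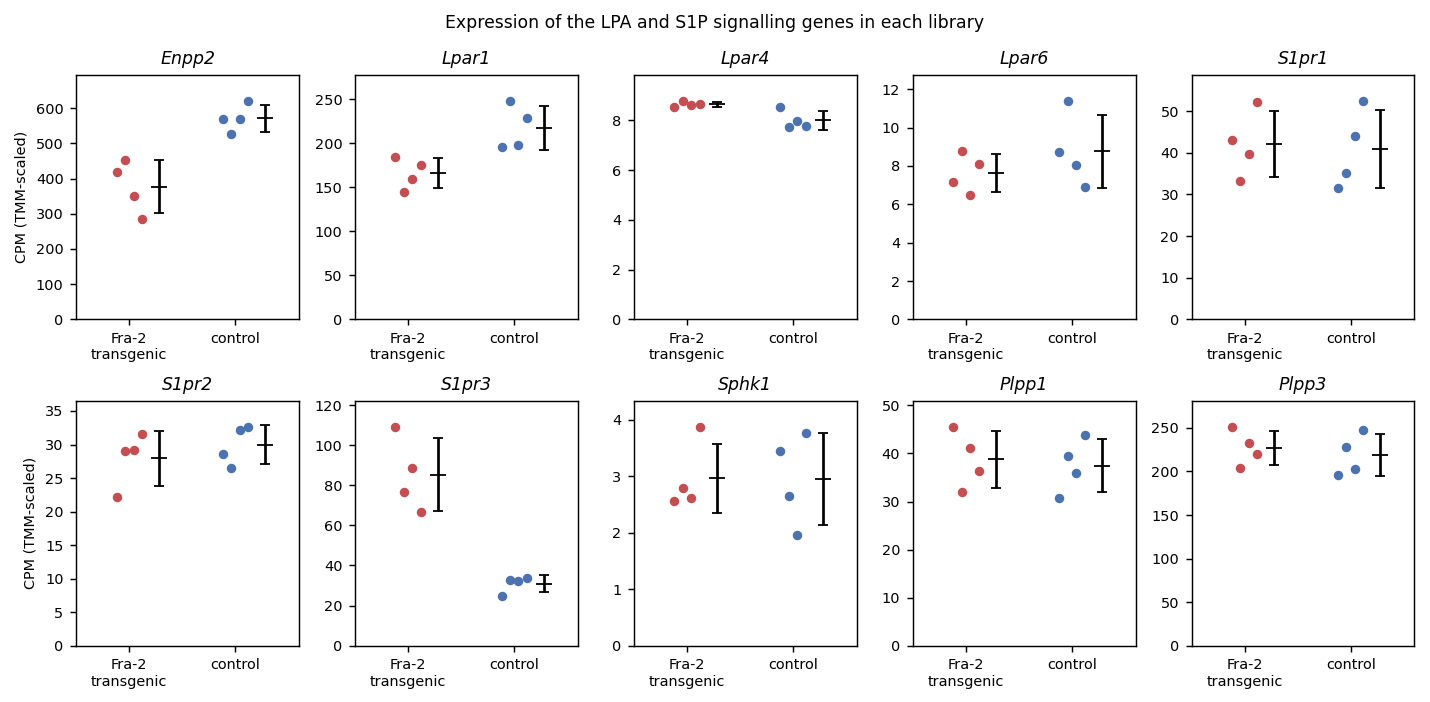
CPM of the 10 genes in each library, with axes that start at 0, red points for labelled Fra-2 transgenic and blue points for control libraries (n = 4 each), and the mean ± SD to the right of each group. The groups do not overlap for Enpp2, Lpar1 and S1pr3, and overlap for the other genes.

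Among the LPA receptors, Lpar1 was the most abundant per length and was also lower in the labelled transgenic libraries. It measured 184, 145, 159 and 175 CPM in Fra-2 1 to Fra-2 4, against 195, 248, 198 and 228 CPM in control 1 to control 4. The groups did not overlap, but the highest labelled transgenic library, Fra-2 1, was close to the lowest control library, control 1. The log2 fold change was -0.39 (SE 0.111, 95% interval -0.63 to -0.15), and it ran from -0.44 to -0.31 when each library was left out in turn. Per length the groups overlapped here too, at 154 to 197 TPM in labelled transgenic and 191 to 224 TPM in control libraries, and they did not overlap without mitochondrially encoded genes (189 to 229 TPM in labelled transgenic and 253 to 324 TPM in control libraries). Lpar1 (ENSMUSG00000038668) lies on chromosome 4 from 58435255 to 58553898 in GRCm38.

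Lpar4 and Lpar6, which encode LPA receptors outside the family of Lpar1, were low and overlapped between the groups. Lpar4 measured 8.53, 8.79, 8.63 and 8.64 CPM in the labelled transgenic libraries, against 8.54, 7.73, 7.99 and 7.76 CPM in the controls. Control 1 alone reached the values of the labelled transgenic libraries (fold 1.08, 95% interval 0.864 to 1.35). Lpar6 measured 6.49 to 8.76 CPM in labelled transgenic and 6.92 to 11.4 CPM in control libraries (fold 0.869, 95% interval 0.655 to 1.15). Its single exon lies inside Rb1 on the opposite strand and shares 408 exonic bases with it. No step that marks the strand is named in the protocols, so reads there cannot be assigned to either gene, and Rb1 itself measured 28.1 to 36.4 CPM in labelled transgenic and 32.2 to 37.1 CPM in control libraries.

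Of the summed TPM of the 6 LPA receptor genes, Lpar1 took 88.7% ± 0.991 in the labelled transgenic and 91.7% ± 0.767 in the control libraries (SD, n = 4 each). Lpar4 took 4.18% to 5.34% in labelled transgenic and 2.91% to 4.02% in control libraries. The summed TPM itself was 172 to 221 in labelled transgenic and 208 to 243 in control libraries, which overlap. In bulk libraries such as these, fewer cells that express a gene and less of its RNA per cell cannot be told apart.

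S1pr3 stood out among the S1P receptors. This gene encodes a receptor that couples to Gi, Gq and G12/13 proteins, and it measured 109, 76.7, 88.4 and 66.6 CPM in Fra-2 1 to Fra-2 4, against 24.6, 32.9, 32.3 and 33.5 CPM in control 1 to control 4. The lowest labelled transgenic library lay well above the highest control library. The means were 85.2 ± 18.3 CPM in labelled transgenic and 30.8 ± 4.16 CPM in control libraries, a 2.77-fold higher level in the labelled transgenic libraries (95% interval 2.2 to 3.48; log2 fold change 1.47, SE 0.154). Leaving out each library in turn gave a log2 fold change between 1.33 and 1.57. The groups were apart per length as well, at 84.8 ± 20.3 TPM in labelled transgenic and 28.9 ± 2.31 TPM in control libraries. S1pr3 (ENSMUSG00000067586) lies on chromosome 13 from 51408639 to 51422797 in GRCm38, and 1021 to 3787 reads per library were counted on it. It shares 45 exonic bases with Gm32834, which is not analysed here.

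The other S1P receptor genes did not follow S1pr3. S1pr1, whose product couples to Gi and is known for its role in endothelium and in lymphocyte exit, measured 43.0, 33.2, 39.7 and 52.2 CPM in the labelled transgenic libraries, against 31.6, 35.2, 44.1 and 52.5 CPM in the controls. The spread within each group was wider than the difference between them (fold 1.03, 95% interval 0.799 to 1.33). S1pr2, whose product acts mainly through G12/13 proteins, measured 22.1, 29.0, 29.2 and 31.6 CPM in labelled transgenic and 28.6, 26.5, 32.1 and 32.6 CPM in control libraries (fold 0.933, 95% interval 0.761 to 1.14). Endothelial markers, which bear on S1pr1, were low beside the myofibroblast markers in both groups, but their sum was not low beside S1pr1. Pecam1, Cdh5, Kdr, Tie1, Tek, Emcn, Cldn5 and Egfl7 summed to 67.4 to 82.6 CPM in labelled transgenic and 48.2 to 68.2 CPM in control libraries, and none was at 0 in any library. In edgeR 0 of the 8 passed and 1, Tek, was higher at an unadjusted p under 0.05, and DESeq2 called 0. Their part in the level of S1pr1 was not tested.

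The make-up of the S1P receptor genes differed accordingly between the groups. S1pr3 took 52% ± 7.43 of the summed TPM of the 5 genes in the labelled transgenic libraries and 28.4% ± 2.67 in the controls. S1pr1 took 37.7% ± 6.48 in labelled transgenic and 54.5% ± 3.96 in control libraries, and S1pr2 took 9.75% ± 2.16 in labelled transgenic and 15.6% ± 1.79 in control libraries. In TPM, S1pr3 exceeded S1pr1 in Fra-2 1, Fra-2 2 and Fra-2 3 (ratios 1.73, 1.58 and 1.52) but not in Fra-2 4 (0.872), while the ratio was 0.435 to 0.638 in the controls. The summed S1P receptor level was 152 to 191 TPM in labelled transgenic and 87.3 to 122 TPM in control libraries. Lpar1 was 1.76 to 2.73 times as high as S1pr3 in the labelled transgenic libraries and 6.4 to 8.24 times as high in the controls.

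**Figure D3:**
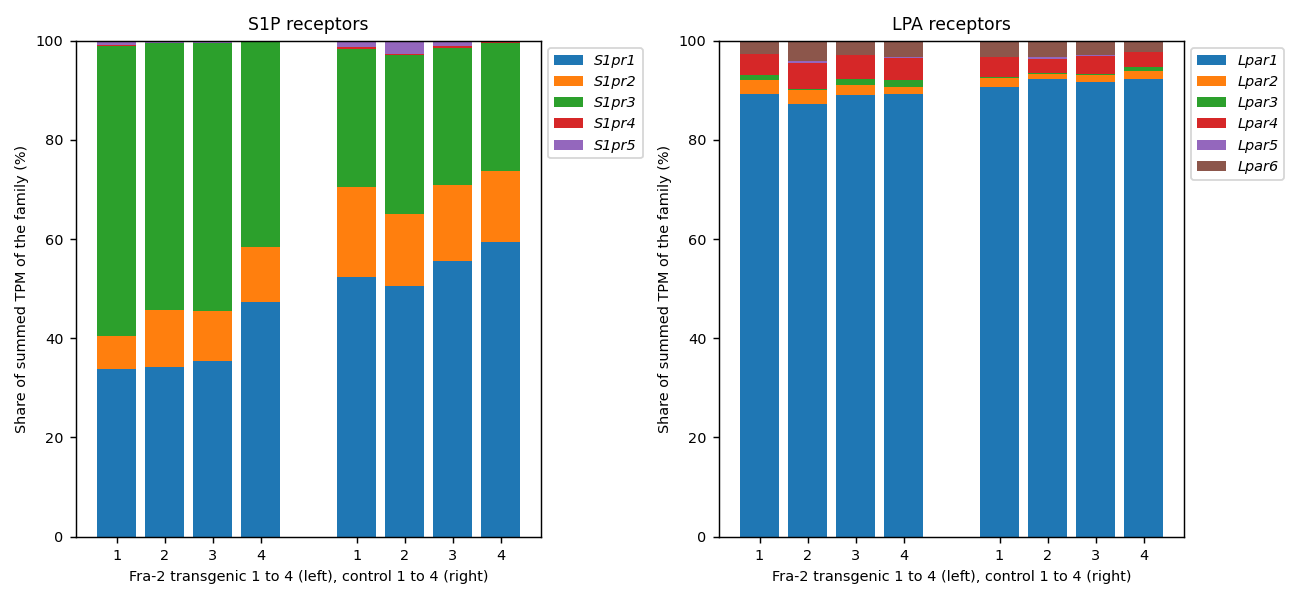
Share of the summed TPM of each receptor family taken by each gene, in percent, with 1 bar per library (labelled Fra-2 transgenic 1 to 4 left, control 1 to 4 right). S1pr3 takes 41.3% to 58.6% of the S1P receptor level in the labelled transgenic and 25.9% to 32.2% in the control libraries, while Lpar1 takes 87.2% or more of the LPA receptor level in every library.

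Pericytes are other mesenchymal cells of the lung that a myofibroblast preparation could hold. The pericyte markers Cspg4, Rgs5, Notch3, Kcnj8 and Abcc9 summed to 1211 to 1553 CPM in labelled transgenic and 1574 to 1936 CPM in control libraries, and none was at 0. In edgeR 0 of the 5 passed and 2, Rgs5 and Kcnj8, were lower at an unadjusted p under 0.05, while DESeq2 called Rgs5 lower. Rgs5, a regulator of G protein signalling, made up most of this sum, at 1025 ± 141 CPM in labelled transgenic and 1391 ± 95.7 CPM in control libraries (edgeR adjusted p = 0.092). The other markers of the list did not all run the same way, with log2 fold changes of 0.32 for Notch3, 0.17 for Cspg4 and -0.09 for Abcc9. The pericyte sum, which is mainly Rgs5, did not overlap between the groups, and its part in the differences of Enpp2, Lpar1 and S1pr3 was not tested. Mesothelial markers summed to 4.46 to 10.7 CPM in labelled transgenic and 1.79 to 4.84 CPM in control libraries for the 4 genes together. The 3 that were tested had log2 fold changes of 0.84 to 1.35. Epithelial markers summed to 97.4 to 194 CPM in labelled transgenic and 50.8 to 121 CPM in control libraries, and immune markers to 81.7 to 110 CPM in labelled transgenic and 74.1 to 101 CPM in control libraries. No marker of these 3 lists passed the edgeR test, 3 were higher at an unadjusted p under 0.05 (Lrrn4, Msln and Sftpb), and DESeq2 called 1, Sftpb. Wt1 was at 0 in 3 control libraries, and no other of these markers was at 0 in any library.

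The genes that make S1P and that remove the phosphate of both lipids did not separate the groups. Sphk1, the gene of the mainly cytoplasmic sphingosine kinase, measured 2.57, 2.8, 2.62 and 3.87 CPM in labelled transgenic and 3.44, 2.65, 1.96 and 3.76 CPM in control libraries (fold 1, 95% interval 0.66 to 1.52). With only 62 to 150 reads per library it had the largest SE of the 10 log2 fold changes, 0.282. Its locus shares 192 exonic bases with Gm29292, a gene of 0 to 13 reads per library. Per length, the other sphingosine kinase gene, Sphk2, stood higher, at 17.6 ± 0.852 TPM in labelled transgenic and 16.7 ± 2.55 TPM in control libraries.

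Plpp1 and Plpp3 encode lipid phosphatases with an active site that faces the outside of the cell, where they break down LPA and S1P. Plpp3 measured 251, 204, 233 and 220 CPM in the labelled transgenic libraries, against 196, 228, 203 and 248 CPM in the controls. These values interleave (fold 1.04, 95% interval 0.888 to 1.22). Plpp1 measured 32.0 to 45.5 CPM in labelled transgenic and 30.7 to 43.8 CPM in control libraries (fold 1.03, 95% interval 0.837 to 1.28). Plpp1 shares 452 of its 1750 exonic bases with Mtrex on the opposite strand, a gene of 109 to 136 CPM in labelled transgenic and 128 to 145 CPM in control libraries. As with Lpar6, reads there cannot be assigned to either gene, which limits the values of Plpp1 and the ratio that follows. Per length, the ratio of Plpp3 to Plpp1 was 3.27 ± 0.218 in labelled transgenic and 3.25 ± 0.197 in control libraries. The RNA ratio of Enpp2 to Plpp3 by summed exon length was 0.707 to 1.21 in labelled transgenic and 1.27 to 1.58 in control libraries. Its difference between the groups mainly restates that of Enpp2, since Plpp3 had a fold of 1.04. Which of these genes stands higher depends on the length used, as given above, and enzyme levels were not measured.

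Beyond the 10 genes, 57 other genes of these pathways were taken from 5 lists by role, of which 47 were tested. In edgeR's test over all genes 0 of them rose and 1 fell in the labelled transgenic libraries, where 0.72% of all tested genes rose and 0.298% fell. At an unadjusted p under 0.05, 0 were higher and 1 lower, DESeq2 called 0 higher and 1 lower, and limma-voom called 0. The gene that fell was Gdpd1, which encodes a lysophospholipase D of the GDE family that can make LPA inside cells. It measured 18.3, 16.6, 17.5 and 16.8 CPM in labelled transgenic libraries, against 29.6, 21, 26.5 and 32.2 CPM in control libraries (log2 fold change -0.66, SE 0.145, edgeR adjusted p = 0.0459). All 4 labelled transgenic libraries lay below the 4 controls. The call was kept in 1 of the 8 fits without 1 library, that without control 2 (edgeR adjusted p = 0.0257), and was lost in the other 7, with an edgeR adjusted p of up to 0.143 without Fra-2 3. It was also lost without robust estimation, with a term for sex and in limma-voom, and the adjusted p over all 19 alternatives ran from 0.00141 to 0.143.

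The other listed members, taken by role, gave no call. Of 5 other LPA and S1P receptor genes 3 were tested, 0 rose and 0 fell. Lpar2, the most abundant of them, measured 5.98 ± 1.91 CPM in labelled transgenic and 4.62 ± 0.96 CPM in control libraries (edgeR adjusted p = 0.794). Lpar5 and S1pr4 had 0 to 10 reads per library and were not tested. Of the 9 LPA supply and turnover genes, 6 were tested and only Gdpd1 passed. Agpat1, which turns LPA into phosphatidic acid, measured 31.9 ± 4.67 CPM in labelled transgenic and 31.0 ± 3.6 CPM in control libraries. Of 10 further lipid phosphatase family genes 7 were tested, 0 rose and 0 fell, with Plpp5 at 47.9 ± 5.34 CPM in labelled transgenic and 46.2 ± 5.77 CPM in control libraries. All 8 S1P kinase, breakdown and export genes were tested, 0 rose and 0 fell. Sgpl1, the gene of the lyase that breaks S1P down for good, measured 133 ± 2.02 CPM in labelled transgenic and 125 ± 23 CPM in control libraries.

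Upstream, 23 of 25 ceramide and sphingosine supply genes were tested, 0 rose and 0 fell, and their median log2 fold change was 0.00. Cers2, a ceramide synthase gene and the most abundant of them, measured 211 ± 18.5 CPM in labelled transgenic and 198 ± 19.3 CPM in control libraries. Of genes that act downstream of the receptors, Gnai2, which encodes a Gi alpha subunit, measured 464 ± 37.8 CPM in labelled transgenic and 419 ± 68.5 CPM in control libraries. Acta2, the smooth muscle actin gene, measured 3411 ± 680 CPM in labelled transgenic and 3285 ± 416 CPM in control libraries.

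**Figure D4:**
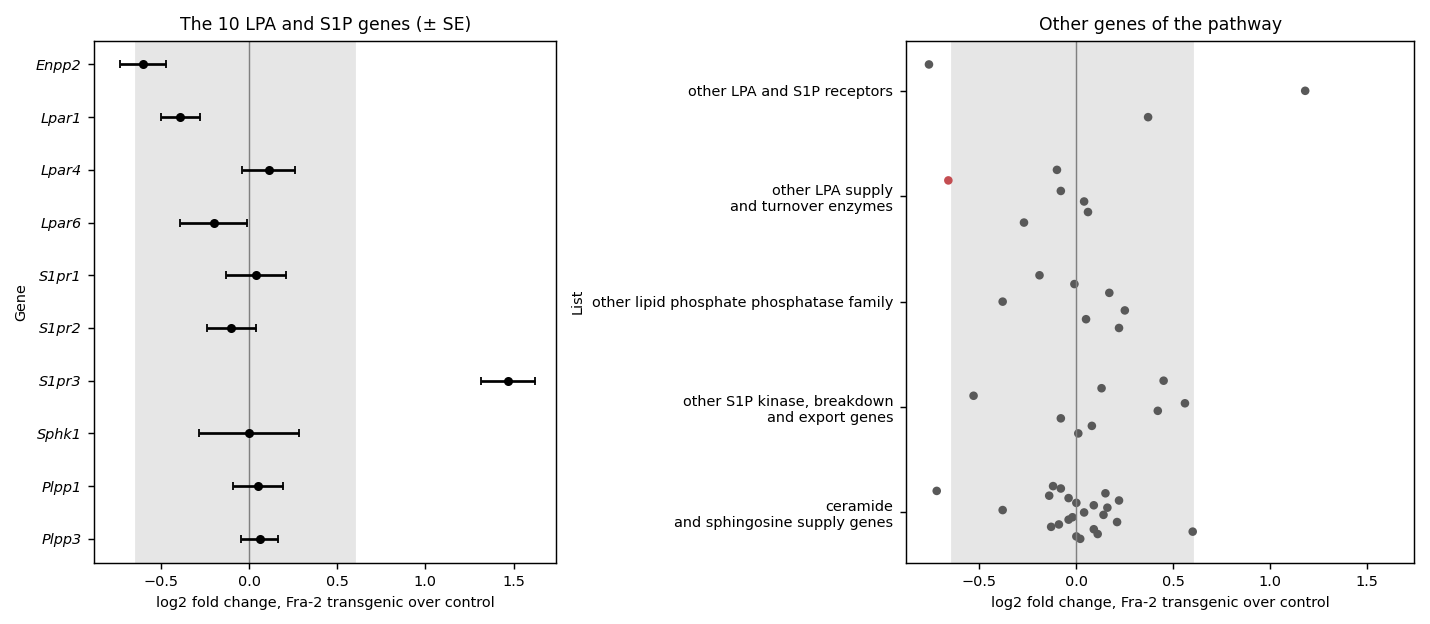
Log2 fold changes of labelled Fra-2 transgenic over control libraries for the 10 genes (left, ± SE) and for the 47 tested genes of the 5 pathway lists (right, 1 point per gene, red where the edgeR adjusted p is under 0.05). The grey band spans the 5th to 95th percentile of all tested genes, from -0.64 to 0.60. On the left S1pr3 lies outside it at 1.47, and Enpp2 lies inside it at -0.60. Points outside it on the right include Lpar3 (1.18), S1pr5 (-0.76), Ormdl1 (-0.72) and Gdpd1 (-0.66), of which only Gdpd1 is red.

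Genes whose profile over the 8 libraries was most like that of Enpp2 were sought by the root mean square difference of log2 CPM after each gene was centred on its own mean, among 9725 genes that averaged 5 CPM or more. The 5 closest were Npas3 (difference 0.0842), a transcription factor gene, Hif3a (0.124), a hypoxia-inducible factor subunit gene, Rhou (0.131), which encodes an atypical small GTPase, Pgbd5 (0.154), derived from a transposase, and St6galnac2 (0.155), a sialyltransferase gene. Rhou measured 259 to 353 CPM in the labelled transgenic and 418 to 482 CPM in the control libraries and passed the test over all genes (log2 fold change -0.58, SE 0.108, edgeR adjusted p = 0.0168). The other 4 did not pass. Fra-2 4 was the lowest library for Enpp2 and for all 5. Because the 5 were chosen for a profile like that of Enpp2, this and their lower labelled transgenic levels are no separate result. For Lpar1 the closest were Dut (0.0522), Dcaf11 (0.0862), Mtrr (0.0901), Cndp2 (0.0929) and Ado (0.0964), none of which passed. Enpp2 and Lpar1 differed from each other by 0.293 on this measure and from S1pr3 by 1.06 and 0.942. Lpar1 was nearer to Plpp3 (0.238), Plpp1 (0.251), Lpar6 (0.261) and S1pr2 (0.292) than to Enpp2. The measure is not scaled by spread, so a gene that varies little can score as near whatever its pattern. Plpp3, Plpp1, Lpar6 and S1pr2 overlapped between the groups, so their nearness does not show a pattern shared with Lpar1. Enpp2 was nearest to Lpar1, and next to Lpar6 (0.381) and S1pr2 (0.389). Sphk1 was below 5 CPM and was not compared.

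**Figure D5:**
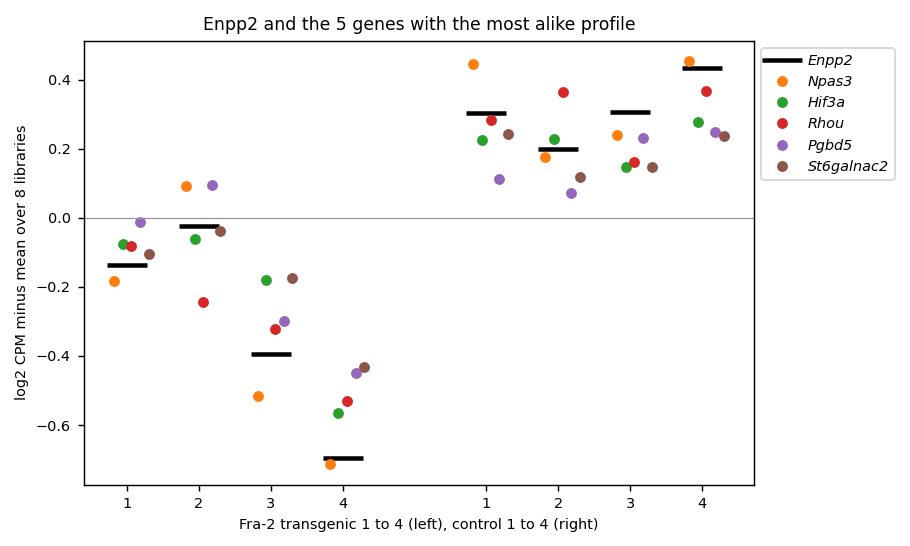
Log2 CPM of Enpp2 (black bars) and of the 5 genes with the most alike profile (coloured points), each centred on its mean over the 8 libraries, with labelled Fra-2 transgenic libraries 1 to 4 left and control libraries 1 to 4 right. All 6 genes are lowest in Fra-2 4 and lie above 0 in every control library, which the choice by likeness to Enpp2 selects for.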

How the data were processed

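RNA-seq libraries of mouse lung myofibroblasts were made, per the labels' protocols, from 50 ng of total RNA by oligo-dT bead selection, cDNA amplification (Ovation RNA-Seq System V2) and transposase-based library construction (Nextera XT). The authors deposited raw counts per mouse Ensembl gene, 1 column per sample. GRCh38, a human build, is the only build in the submitters' processing notes although the identifiers are mouse. The alignment, counting and annotation were not given in the sources used here. GENCODE M21 (GRCm38) gave a symbol for 42548 of the 43432 identifiers.

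In R 4.3.3, 15422 genes passed filterByExpr (at least 10 reads in enough libraries, 15 over all; edgeR 4.0.16) and were scaled by TMM and compared with the robust quasi-likelihood test, two-sided, Benjamini-Hochberg adjusted at 0.05. Intervals are 95% and use its SE. TPM used exon-union lengths over all genes without TMM. The 10 genes, the lists and the alternatives were chosen with earlier results of these data known. Named genes are the 10, Fosl2, the most abundant and up to 3 called genes of each list, and the 5 most alike genes of Enpp2 and of the most abundant receptor gene; Sphk2 and the markers named singly were added after their values were seen. Alternatives were other scalings, filters, tools (DESeq2 1.42.0, limma-voom 3.58.1), a replicate block, a term for sex and each library left out. Sex was read from Xist counts against the summed counts of Ddx3y, Eif2s3y, Kdm5d and Uty, with 2 female libraries a group. Between libraries of one group the chi-square per gene was 40.6 to 179, so no library was taken to be deposited more than once; this does not show that libraries came from separate animals. The test was checked on simulated counts. Downstream gene lists are not reported here. The total counts set the counting error, which the intervals between libraries include.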

Additional observations from a re-analysis of the deposited data

Results flagged for a closer look

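In 4 of 38 groups of 4 libraries examined, the gap between 1 library and the nearest of the others took an unusually large part of the group's range (Dixon's 95% limit); chance gives about 1 in 20 such groups. S1pr3 was at 24.6 CPM in control 1, against 32.3 to 33.5 CPM in the other controls. Sgpl1 was at 130 CPM in Fra-2 1, against 133 to 134 CPM in the other labelled transgenic libraries, a small step in a narrow range. Cers2 was at 239 CPM in Fra-2 1, against 198 to 205 CPM in the others. Acta2 was at 3904 CPM in control 4, against 3038 to 3157 CPM in the other controls. Without control 1 the log2 fold change of S1pr3 was 1.38.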

How the results depend on the processing

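The log2 fold change of S1pr3 was 1.33 to 1.57 over the 19 alternative fits. Enpp2 stayed lower in all 19, at -0.70 to -0.49, but the count of the 10 genes called lower went from 1 to 0 under upper-quartile and total-count scaling, without robust estimation and with the sex term, and ran from 0 to 1 over the fits without 1 library. The count of pathway genes called lower, 1 with Gdpd1, went to 0 without robust estimation, with the sex term and in limma-voom, and ran from 0 to 1 without 1 library. DESeq2 called 272 genes higher and 97 lower, against 111 and 46 in edgeR, and an adjusted p of 0.10 gave 73 lower. Without 1 library, 50 to 153 were higher and 22 to 52 lower. In the same fits the log2 fold changes of Agpat1 (-0.05 to 0.12), Plpp5 (-0.02 to 0.12), Sgpl1 (-0.00 to 0.18) and Acta2 (-0.02 to 0.18) changed sign around 0, and over all 19 alternatives so did those of S1pr1 (-0.08 to 0.19), S1pr2 (-0.16 to 0.00), Sphk1 (-0.15 to 0.14) and Plpp1 (-0.03 to 0.13). The cause of these changes was not tested. Same-numbered libraries correlated in their deviations by 0.00177, 0.219, 0.0797 and 0.31. The control of the same number was the most correlated one for Fra-2 2 and Fra-2 4, but not for Fra-2 1 and Fra-2 3. The numbers were not taken to pair libraries, which these values do not settle. The replicate block gave 137 higher and 53 lower genes and changed no call among the 10. Leaving out mitochondrially encoded genes was added after the data were seen. Small counts limit Sphk1, Lpar4 and Lpar6.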
